A study of Mus musculus with 6 samples.

Results

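The lysosome and autophagy genes described here are 46 genes picked by symbol for what their products do, and all 46 stand among the 24346 gene symbols of the series. The choice was made with earlier results of these data known. They comprise 9 cathepsin and legumain genes, 10 genes of other lysosomal hydrolases and their cofactors, 7 genes of lysosomal membrane proteins, 3 MiT/TFE transcription factors, 5 genes of the ATG8 family, 4 genes of ATG8 conjugation, 4 genes of autophagy initiation and nucleation, and 4 cargo receptors. RNA was sequenced from 4T1 cells, a line from a mouse mammary tumour that forms metastases in grafted mice. The shRNA1 cells and the shRNA3 cells each carried their own hairpin RNA aimed at the lncRNA AU021063, a long noncoding transcript, and the WT cells were mock transfected, with 2 libraries in each of the 3 groups. The series title names IL-6 and Arid5a as inducers of AU021063 and Trib3 and Mek/Erk signalling as its targets. Whether the hairpins were stably integrated, and whether 2 libraries with the same label stem from different cultures, is not stated, and the p-values therefore rest on a spread between libraries that could be purely technical. None of the 6 libraries is labelled as carrying a control hairpin, so loss of AU021063 and the presence of a hairpin cannot be told apart.

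Lysosomes are acid compartments in which hydrolases break down proteins, lipids and sugars that arrive by endocytosis or by autophagy. In autophagy a membrane closes around cytoplasm, with ATG8 proteins coupled to its lipids and cargo receptors tying the load to ATG8, and then fuses with the lysosome. Many lysosomal genes are known targets of the transcription factors TFEB, TFE3 and MITF, which bind an E-box-like sequence called the CLEAR motif.

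AU021063, the targeted RNA, was listed at 1.05 and 0.572 FPKM (fragments scaled to gene length and to the size of the library) in shRNA1 cells, at 0.785 and 0 FPKM in shRNA3 cells, and at 1.82 and 1.67 FPKM in WT cells. Its mean was 46.3% of the WT mean in shRNA1 cells and 22.5% in shRNA3 cells, and at this low level it did not pass the filter for testing. The libraries summed to 560862 to 604022 FPKM, with 10998 to 11106 symbols at 1 FPKM or more. The 6 markers of the carcinoma line summed to 738 to 1095 FPKM in knockdown libraries and 921 to 954 FPKM in WT libraries, and 5 were tested. Tested with limma as the members were, 3 were called higher and none lower for shRNA1 (log2 changes of 0.12 to 3.05) and 2 higher and 2 lower for shRNA3 (-0.69 to 2.44); Krt19, chosen after its values were seen, changed most of these, at 19.8 and 20.4 FPKM with shRNA1, 12.4 and 13.2 FPKM with shRNA3 and 1.79 and 1.33 FPKM in WT. Fibroblast markers summed to 59.7 to 63.7 FPKM in knockdown and 70.0 to 70.8 FPKM in WT libraries, with Col3a1 and Thy1 at 0 and, of 3 tested, 1 higher and 1 lower over both hairpins (-0.30 to 0.66). The adipocyte marker Fabp4, at 1.76 to 3.76 FPKM in knockdown and 0.868 and 1.001 FPKM in WT libraries, rose by 0.88 on the log2 scale. The part of these markers in the results was not tested. Of 12 macrophage and other leukocyte markers 11 stayed below 1 FPKM in every library and 7 were listed at 0 throughout, among them Ptprc, the gene of the leukocyte antigen CD45. The summed leukocyte markers ranged over 14.0 to 26.5 FPKM in knockdown libraries and over 19.5 to 22.7 FPKM in WT libraries, nearly all of it Cd14. For the 40 members at 10 FPKM or more, the median difference within a group was 4.16% in shRNA1 cells, 3.52% in shRNA3 cells and 3.05% in WT cells.

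Several member promoters hold the CLEAR motif, shown because it links the lysosomal genes to the MiT/TFE factors in the list. Promoter windows of 300 bases, 250 before the gene's start and 50 from it on, were taken from RefSeq on GRCm38.p6 (the assembly of mm10) for the 39 members in that table, and both TCACGTGA and its core CACGTG, which also lies inside it, read the same on either strand. TCACGTGA occurred in 5 of the 39 members (12.8%), Ctsa, Ctsd, Gla, Cln3 and Mcoln1, against 304 of 27025 genes in the whole table (1.12%) and 203 of the 8515 genes that passed the filter on low values (2.38%). All 5 were lysosomal genes, 5 of 23 (21.7%), and none was among the 16 other members. The core occurred in 12 of 39 members (30.8%), against 8.09% of all genes and 12.1% of the genes that passed the filter. The stretches below are written 5' to 3' on the strand of the gene, with TCACGTGA in capitals. They lie in Ctsa at chr2:164833757-164833786 (plus strand), Ctsd at chr7:142387908-142387937 (minus), Gla at chrX:134601215-134601244 (minus, 1 of 2 matches), Cln3 at chr7:126583340-126583369 (minus) and Mcoln1 at chr8:3500462-3500491 (plus), in bases that GENCODE release 21 annotates as exon of this or a neighbouring gene.
Ctsa: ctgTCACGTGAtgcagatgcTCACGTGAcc
Ctsd: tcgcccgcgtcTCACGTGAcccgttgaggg
Gla: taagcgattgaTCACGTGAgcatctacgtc
Cln3: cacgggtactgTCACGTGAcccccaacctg
Mcoln1: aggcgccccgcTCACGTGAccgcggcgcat
A second set shows the core CACGTG in capitals, in Lamp1 just before its start at chr8:13159089-13159160 (plus strand), with 4 matches, and in Lgmn at chr12:102439125-102439152 (minus), with 1. Neither stretch overlaps an annotated exon.
Lamp1: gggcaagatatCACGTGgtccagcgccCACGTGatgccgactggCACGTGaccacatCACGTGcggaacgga
Lgmn: ggaatgtctgtCACGTGgtccattttat
Ctsa, Cln3 and Lgmn each have another promoter window, in which neither TCACGTGA nor CACGTG occurs. For Cln3 and Ctsa that other window, at chr7:126585768-126586067 and chr2:164832622-164832921, is the one at the annotated start of the gene. For Lgmn the other window, at chr12:102439679-102439978, lies nearer the annotated start than the one with the match. A match says that these letters stand in the window, not that a factor binds there. The 5 genes with TCACGTGA did not move in 1 direction: over both hairpins Ctsa, Gla and Ctsd rose (0.38, 0.29 and 0.19 on the log2 scale) and Cln3 and Mcoln1 fell (by 0.24 and by 0.17).

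Over both hairpins, knockdown cells held more transcript of most lysosomal hydrolases and of Cd68 than WT cells, and less of the cargo receptors Sqstm1 and Tax1bp1 and of Lamp1. Levels were compared as log2(FPKM + 1), which understates the change of low genes, in 1 limma fit over the 11079 symbols with a mean of at least 1 FPKM, and a gene was called at a Benjamini-Hochberg adjusted p under 0.05. Of the members, 45 passed that filter; Ctss, at 0 to 0.108 FPKM, did not. Against WT, the mean of both hairpins was called for 34 of 45 members (75.6%), 23 higher and 11 lower, where 50.0% of all genes were called, 24.1% higher and 25.9% lower. Since the members were chosen with earlier results of these data known, their share is a description and not a test of the set. Among the 8856 genes averaging 5 FPKM or more, 54.4% were called, and the median member stood at 39.7 FPKM in WT cells. The median change of the members was 0.12, against -0.01 for all genes. The median without regard to sign was 0.19 for members and 0.17 for all genes. Only Lgmn, Lipa and Cd68 among the called members changed by 0.5 or more. When the 4 knockdown libraries were treated as replicates of 1 group, which counts the difference between the hairpins as spread, 13.7% of all genes and 9 members were called, the members being Ctsa, Ctsz, Lgmn, Glb1, Asah1, Cd63, Cd68 and Wipi1 higher and Tax1bp1 lower. After rescaling the libraries to a common total, which takes the median of all genes to -0.07, against -0.01 as deposited, and the share of higher calls among all genes to 34.3%, against 48.2% as deposited, 17 members were called higher and 12 lower. Without WT replicate 2, 5 members were called lower in place of 11, 2029 of all genes in place of 2866, and 37.2% of all genes were called in either direction. In bulk RNA, more transcript per cell and more cells that hold it cannot be told apart.

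Taken by hairpin, shRNA1 against WT gave 22 called members (48.9%), 15 higher and 7 lower, with 36.0% of all genes called, 17.6% higher and 18.4% lower. For shRNA3 against WT the count was 34 (75.6%), 25 higher and 9 lower, with 55.2% of all genes called, 27.4% higher and 27.8% lower. Without WT replicate 2 or shRNA1 replicate 1, 4 members were called lower for shRNA1 in place of 7, and 1280 or 1305 of all genes in place of 2035. Leaving out shRNA1 replicate 2 took the share of all genes called for shRNA1 to 23.5%. Both comparisons use the same WT libraries. Median member changes were 0.05 for shRNA1 and 0.19 for shRNA3, each beside -0.01 for all genes. After rescaling to the same total, 14 members were called higher and 11 lower for shRNA1 (34.9% of all calls higher, against 49.0% as deposited) and 19 higher and 11 lower for shRNA3 (37.6%, against 49.7%). The 25 lysosomal members tested (cathepsins and legumain, other hydrolases and membrane proteins) had 16 called higher and 6 lower over both hairpins, with a median of 0.25. Over both hairpins 24.1% of all genes were higher and 25.9% lower. The 17 autophagy members had 6 called higher and 5 lower, with a median of 0.08. For shRNA1 1 autophagy member was called higher and 3 lower, and for shRNA3 7 higher and 5 lower.

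**Figure D1:**
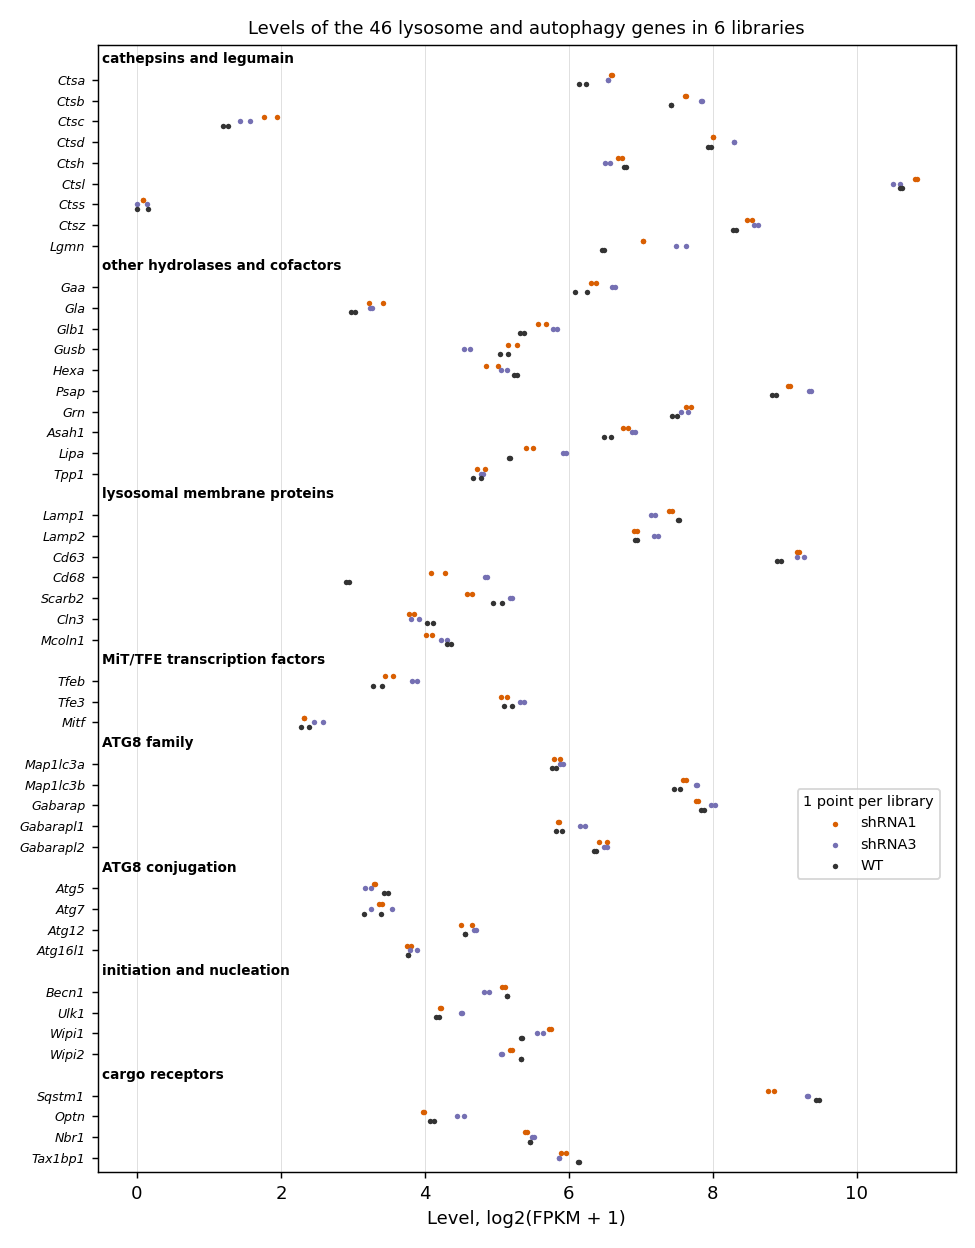
Level of each of the 46 genes in each library on the log2(FPKM + 1) axis, 1 point per library, grouped by role. Ctsl sits farthest right, at 1445 to 1821 FPKM, Ctss lies near 0, and the Cd68 points of the knockdown libraries (16.0 to 28.1 FPKM) lie well to the right of the WT points (6.50 and 6.69 FPKM).

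Most genes in the group of legumain and the cathepsins, the main proteases of the lysosome, rose. Over both hairpins 6 of the 8 tested were higher, Ctsh fell and Ctsl was not called, with a median of 0.28. Of all genes 24.1% were higher and 25.9% lower. Lgmn (chr12:102394084-102439813), which encodes legumain, the protease that cuts after asparagine and processes cathepsin precursors, had 130.2 and 129 FPKM in shRNA1 cells and 196 and 179 FPKM in shRNA3 cells, against 88.6 and 86.8 FPKM in WT cells. All 4 knockdown libraries lay above both WT libraries, and the shRNA3 libraries above those of shRNA1. The change was 0.56 ± 0.05 (SE) for shRNA1 and 1.09 ± 0.05 for shRNA3 on the log2 scale (limma, adjusted p = 1.30e-04 and 3.02e-06), 1.48 and 2.14 times the WT mean. Ctsb, for cathepsin B, had 195 and 196 FPKM with shRNA1, 231 and 227 FPKM with shRNA3 and 171 FPKM in both WT libraries. The groups did not overlap, and the rise was 0.20 with shRNA1 and 0.42 with shRNA3 (adjusted p = 0.00507 and 6.23e-05). Ctsa, for the carboxypeptidase that also shields beta-galactosidase from breakdown, had 95.2 and 96.1 FPKM with shRNA1, 92.4 and 92.6 FPKM with shRNA3 and 69.6 and 74.7 FPKM in WT. It rose by 0.40 and 0.36 with shRNA1 and shRNA3 (limma, adjusted p = 4.45e-04 and 4.21e-04), and shRNA3 minus shRNA1 was -0.05 ± 0.05, not called.

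Ctsz, for the carboxypeptidase cathepsin Z, had 371 and 354 FPKM with shRNA1, 395 and 382 FPKM with shRNA3 and 319 and 311 FPKM in WT. It rose by 0.20 and 0.30 with shRNA1 and shRNA3 without overlap between knockdown and WT libraries, and its shRNA1 call was lost without WT replicate 2 (0.18, adjusted p = 0.0518) or shRNA1 replicate 1 (0.17, adjusted p = 0.0597) and after quantile normalization (0.10, adjusted p = 0.0549). Ctsc, for the dipeptidyl peptidase that activates granule proteases of leukocytes, was low, at 2.84 and 2.40 FPKM with shRNA1, 1.69 and 1.96 FPKM with shRNA3 and 1.41 and 1.28 FPKM in WT. Its rise was called for shRNA1 (0.62 ± 0.12, limma adjusted p = 0.00464) and not for shRNA3 (0.27 ± 0.12, adjusted p = 0.0788). Ctsd and Ctsl differed between the hairpins. Ctsd, for the aspartic protease cathepsin D, had 256 FPKM in both shRNA1 libraries, 312 and 314 FPKM in shRNA3 libraries and 244 and 252 FPKM in WT libraries. It rose with shRNA3 (0.34, adjusted p = 1.94e-04) and was not called for shRNA1 (0.05, adjusted p = 0.359).

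Ctsl, for the cysteine protease cathepsin L, was the most abundant member, with 1821 and 1803 FPKM in shRNA1 cells, 1553 and 1445 FPKM in shRNA3 cells and 1579 and 1554 FPKM in WT cells. The shRNA1 libraries stood above all others, a rise of 0.21 (limma, adjusted p = 0.00897), while shRNA3 was not called against WT (-0.06, adjusted p = 0.258). Without WT replicate 2 or either shRNA1 replicate the Ctsl rise missed the threshold at the same size (0.20 to 0.22, adjusted p = 0.0505 to 0.0632), and quantile normalization gave 0.08 (adjusted p = 0.156). Ctsh, for the aminopeptidase cathepsin H, ran from 90.0 to 106 FPKM in knockdown libraries and from 108 to 109.9 FPKM in WT libraries, and fell with shRNA3 (by 0.24, adjusted p = 0.00222). Over both hairpins the fall of Ctsh, by 0.16, was lost without WT replicate 1 (-0.15, adjusted p = 0.0666). The 9 genes summed to 2977 and 2939 FPKM in shRNA1 cells, 2875 and 2733 FPKM in shRNA3 cells, and 2582 and 2559 FPKM in WT cells. How reads shared between overlapping genes were counted is not given, and exons of other genes cover 34.4% of the exon bases of Ctsd (Gm49369, same strand), 32.9% of Ctsl (an antisense gene and a pseudogene), 17.4% of Ctsa and 12.8% of Ctsb.

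**Figure D2:**
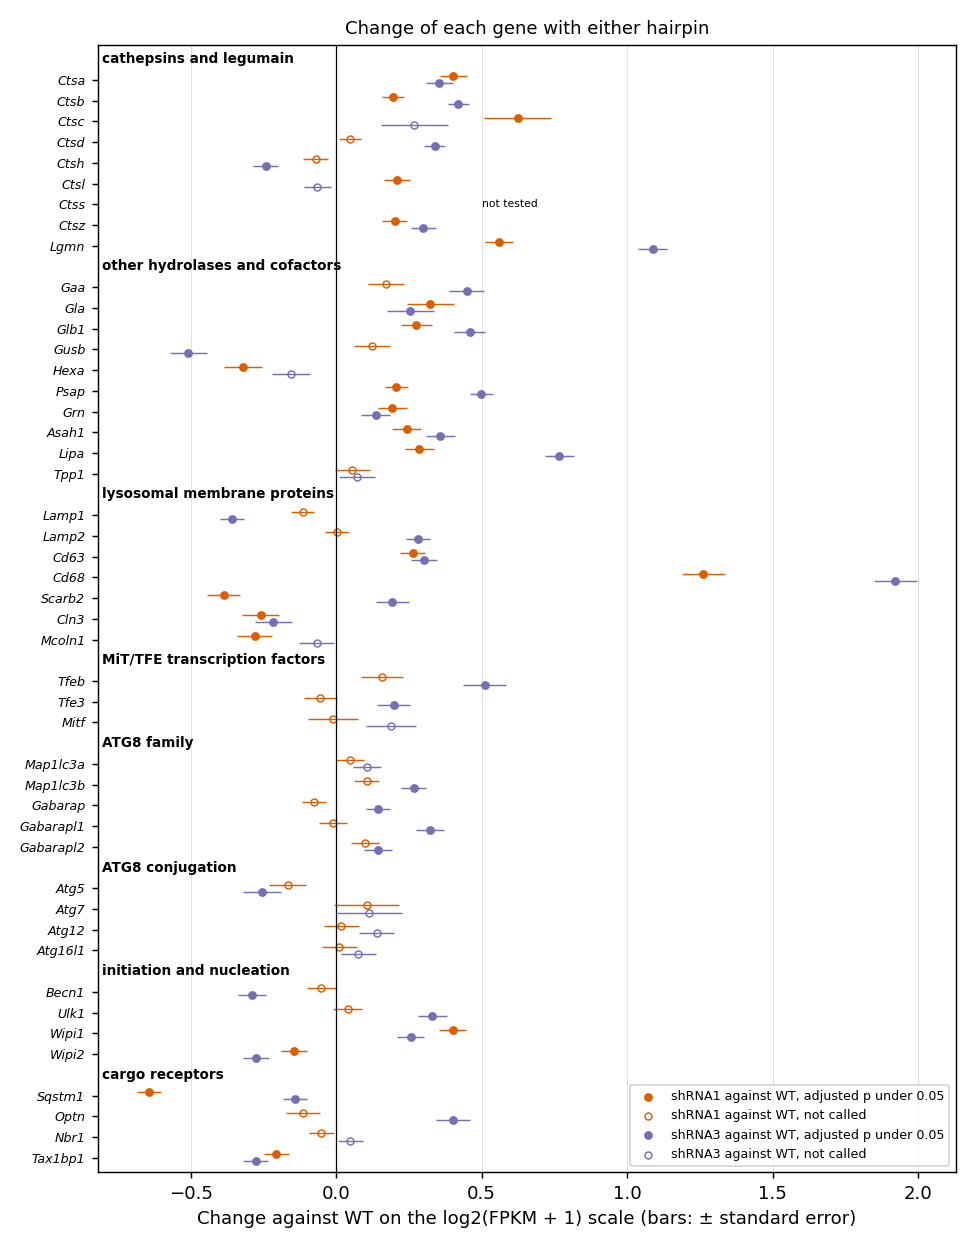
Change of each gene against WT on the log2(FPKM + 1) scale, with the standard error as a bar, in shRNA1 and shRNA3 cells; filled points had an adjusted p under 0.05. Cd68 lies farthest right with both hairpins, followed by Ctsc (0.62) with shRNA1 and Lgmn (1.09) with shRNA3, while Sqstm1 (-0.64) lies farthest left with shRNA1 and Gusb (-0.51) farthest left with shRNA3.

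Among the other hydrolases and their cofactors 7 of 10 rose over both hairpins, Hexa and Gusb fell and Tpp1 was not called, with a median of 0.30. The shares of all genes were 24.1% higher and 25.9% lower. Lipa (chr19:34492318-34527474), the lysosomal acid lipase that frees cholesterol and fatty acids from lipoprotein lipids, had 41.4 and 44.6 FPKM with shRNA1 and 61.0 and 59.7 FPKM with shRNA3, against 35.3 and 34.8 FPKM in WT. The 3 groups did not overlap, and the change was 0.29 ± 0.05 for shRNA1 and 0.77 ± 0.05 for shRNA3 (limma, adjusted p = 0.00365 and 1.57e-05). Psap, the precursor of the saposins that present sphingolipids to hydrolases, was the most abundant of these genes at 537 and 528 FPKM with shRNA1, 659 and 645 FPKM with shRNA3 and 452 and 470.1 FPKM in WT. Psap rose by 0.21 and 0.50 with shRNA1 and shRNA3 (adjusted p = 0.00543 and 4.00e-05), and quantile normalization ended the shRNA1 call (0.05, adjusted p = 0.316). Glb1, for beta-galactosidase, had 50.4 and 46.4 FPKM with shRNA1, 54.1 and 56.1 FPKM with shRNA3 and 40.5 and 39.1 FPKM in WT. It rose by 0.28 and 0.46 with shRNA1 and shRNA3 (limma, adjusted p = 0.00607 and 2.59e-04), with no overlap between groups.

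Asah1, the acid ceramidase, had 107 and 112 FPKM with shRNA1, 120.4 and 117 FPKM with shRNA3 and 95.6 and 89.1 FPKM in WT. Its rise was 0.24 with shRNA1 and 0.36 with shRNA3, the first lost without shRNA1 replicate 2 (0.21, adjusted p = 0.0507). Gaa, which breaks down lysosomal glycogen, had 82.2 and 78.0 FPKM with shRNA1, 95.7 and 99.0 FPKM with shRNA3 and 67.0 and 75.2 FPKM in WT. Every knockdown library stood above both WT libraries, and the rise was called for shRNA3 (0.45, limma adjusted p = 5.10e-04) and not for shRNA1 (0.17, adjusted p = 0.0584). Gla, the alpha-galactosidase with the TCACGTGA matches above, had 8.34 and 9.70 FPKM with shRNA1, 8.64 and 8.42 FPKM with shRNA3 and 6.84 and 7.14 FPKM in WT. It rose by 0.29 over both hairpins (adjusted p = 0.00944), a call lost without WT replicate 1 (0.26, adjusted p = 0.0671), while the shRNA3 call was lost without any 1 of the WT or shRNA3 libraries (0.23 to 0.28, limma adjusted p = 0.0613 to 0.111) and the shRNA1 call without WT replicate 1 or shRNA1 replicate 2 (0.30 and 0.23, adjusted p = 0.0775 and 0.0938). Grn, for progranulin, ran from 187 to 206 FPKM in knockdown libraries and from 172 to 180.1 FPKM in WT libraries. Its call over both hairpins (0.17, limma adjusted p = 0.0140) was lost after rescaling to the same total (0.10, adjusted p = 0.101), after quantile normalization (0.12, adjusted p = 0.0697) and without WT replicate 1 (0.13, adjusted p = 0.111).

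Hexa, for the alpha subunit of hexosaminidase A, had 31.4 and 27.9 FPKM with shRNA1, 34.4 and 32.2 FPKM with shRNA3 and 36.6 and 37.7 FPKM in WT. All knockdown libraries lay below WT, a fall called for shRNA1 (by 0.32, adjusted p = 0.00730) and not for shRNA3 (-0.16, adjusted p = 0.0728); over both hairpins (-0.24) it was lost without WT replicate 2 (-0.22, adjusted p = 0.0638). Gusb (chr5:129989011-130003049), the beta-glucuronidase, had 37.9 and 34.7 FPKM with shRNA1 and 22.4 and 23.7 FPKM with shRNA3, against 32.0 and 34.5 FPKM in WT. The shRNA3 libraries alone lay low, a fall of 0.51 ± 0.06 (limma, adjusted p = 3.46e-04), while shRNA1 was at 0.12 ± 0.06 (adjusted p = 0.161). The fall of Gusb over both hairpins (-0.19) was lost without WT replicate 2, shRNA1 replicate 2 or shRNA3 replicate 1 (-0.14 to -0.17, adjusted p = 0.0515 to 0.151). Tpp1, the tripeptidyl peptidase, was at 25.5 to 27.6 FPKM in knockdown libraries and 24.5 to 26.5 FPKM in WT libraries and was not called in any comparison.

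**Figure D3:**
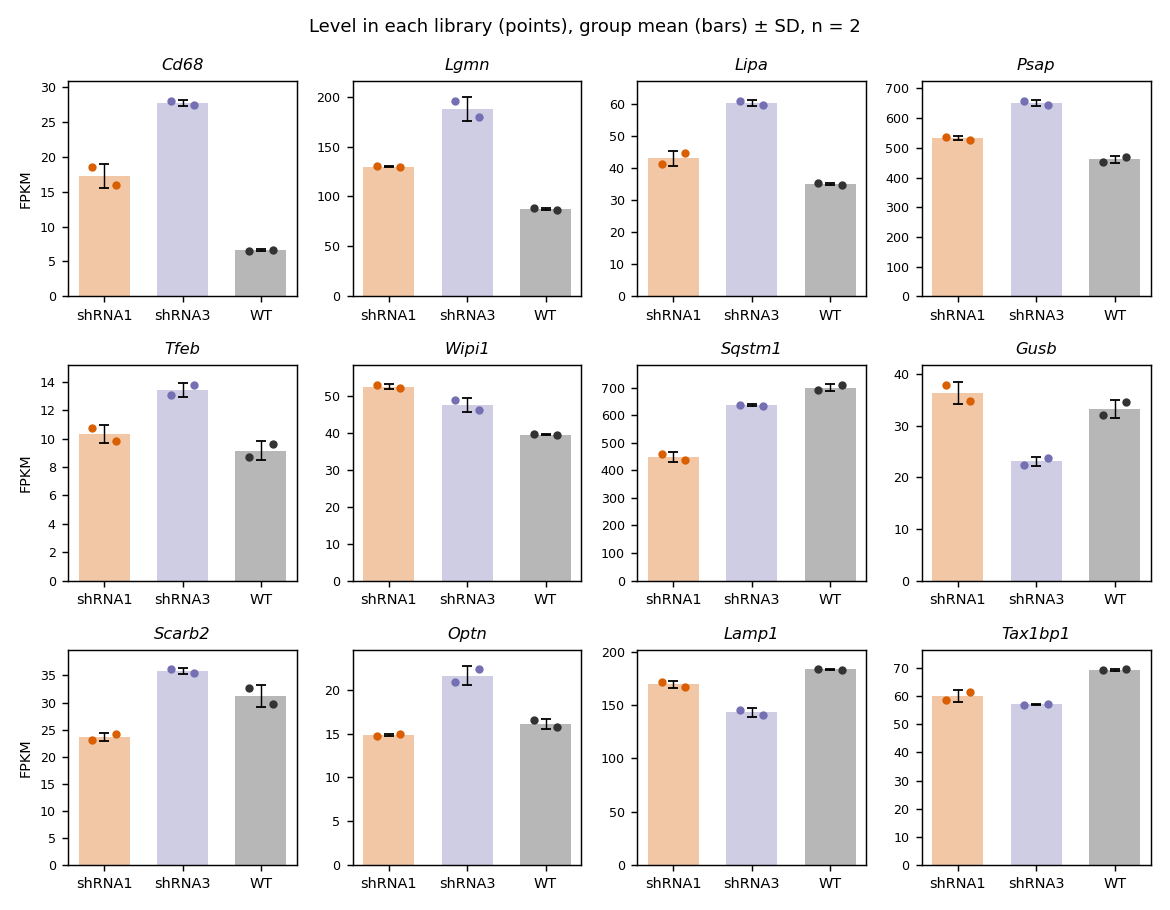
Level in FPKM of 12 members in each library (points), with the group mean as a bar from 0 and the SD over 2 libraries. Cd68, Lgmn, Lipa and Psap are highest in shRNA3 cells, intermediate in shRNA1 cells and lowest in WT cells, Gusb is low in shRNA3 cells, and Sqstm1 and Scarb2 are lowest in shRNA1 cells.

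The genes of lysosomal membrane proteins were split, with 3 of 7 higher, 3 lower and Scarb2 not called over both hairpins. Among all genes 24.1% were higher and 25.9% lower. Cd68 (chr11:69664213-69666153, minus strand), a heavily glycosylated protein of late endosomes and lysosomes used as a macrophage marker, had 18.5 and 16.0 FPKM with shRNA1 and 28.1 and 27.5 FPKM with shRNA3, against 6.50 and 6.69 FPKM in WT. The 3 groups were far apart, at 2.62 and 4.21 times the WT mean for shRNA1 and shRNA3. This was the largest change of any member: 1.26 ± 0.07 for shRNA1 and 1.92 ± 0.07 for shRNA3 (limma, adjusted p = 1.48e-05 and 1.33e-06). Of the other macrophage genes, Adgre1, Csf1r, Itgam and Lyz2 were at 0 to 0.162 FPKM in knockdown libraries and 0 to 0.217 FPKM in WT libraries. Cd14 was at 26.4 and 24.1 FPKM with shRNA1, 16.1 and 13.8 FPKM with shRNA3 and 19.3 and 22.6 FPKM in WT. Its shRNA1 libraries lay above WT without a call (0.26), and it was called lower for shRNA3 (-0.46). No exon of another annotated gene overlaps Cd68.

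Cd63, the tetraspanin of late endosomes and exosomes, had 584 and 576 FPKM with shRNA1, 615 and 578 FPKM with shRNA3 and 491 and 476 FPKM in WT. It rose by 0.26 and 0.30 with shRNA1 and shRNA3 (limma, adjusted p = 0.00289 and 7.31e-04); quantile normalization took the shRNA1 value to 0.08 (adjusted p = 0.136). Lamp1 (chr8:13159161-13175338), for the most abundant glycoprotein of the lysosomal membrane and the promoter with 4 CACGTG cores shown above, had 172 and 167 FPKM with shRNA1, 146 and 140.2 FPKM with shRNA3 and 184 and 183 FPKM in WT. All knockdown libraries lay below WT, a fall called for shRNA3 (by 0.36 ± 0.04, adjusted p = 2.16e-04) and not for shRNA1 (-0.11 ± 0.04, adjusted p = 0.0577). Its relative Lamp2, which also serves chaperone-mediated autophagy, ran from 119 to 123 FPKM in shRNA1 cells, 144 to 151 FPKM in shRNA3 cells and 120.0 to 122 FPKM in WT cells, and rose with shRNA3 (0.28, limma adjusted p = 8.61e-04). Over both hairpins the rise of Lamp2, 0.14, was lost after rescaling to the same total (0.08, adjusted p = 0.127) and without WT replicate 1 or 2 (0.15 and 0.13, adjusted p = 0.0511 and 0.0786).

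Scarb2 (chr5:92441314-92506833), the LIMP-2 protein that carries glucocerebrosidase to lysosomes, went in opposite directions: 23.1 and 24.1 FPKM with shRNA1 and 36.2 and 35.4 FPKM with shRNA3, against 32.7 and 29.7 FPKM in WT. The shRNA1 libraries lay below WT and the shRNA3 libraries above, at -0.39 ± 0.06 (limma, adjusted p = 0.00175) and 0.19 ± 0.06 (adjusted p = 0.0216). The shRNA3 rise was lost after rescaling to the same total (0.12, adjusted p = 0.138) and without WT replicate 2 or either shRNA3 replicate (0.13 to 0.21, adjusted p = 0.0645 to 0.130). Cln3 is the gene mutated in juvenile Batten disease and Mcoln1 the calcium channel of the lysosome, both with TCACGTGA in a promoter window. They were at 12.7 to 14.1 and 15.2 to 18.8 FPKM in knockdown libraries, against 15.4 to 16.4 and 18.7 to 19.7 FPKM in WT libraries. Both were called lower over both hairpins. The call was lost for Cln3 without WT replicate 2 (-0.20). For Mcoln1 it was lost without either WT library, shRNA1 replicate 2 or shRNA3 replicate 2 (-0.14 to -0.21). Taken by hairpin, Mcoln1 fell with shRNA1 (by 0.28, limma adjusted p = 0.00882), a call lost without WT replicate 2 or shRNA1 replicate 2 (-0.25 and -0.24). Mcoln1 was not called for shRNA3 (-0.07, limma adjusted p = 0.368), whose libraries overlapped those of WT.

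Of the 3 MiT/TFE factors, only the transcript of Tfeb was called over both hairpins, where 50.0% of all genes were called. Tfeb (chr17:47737030-47792419), the master activator of lysosomal genes, had 10.8 and 9.86 FPKM with shRNA1 and 13.1 and 13.8 FPKM with shRNA3, against 8.67 and 9.61 FPKM in WT. The shRNA3 libraries stood above the rest, a rise of 0.51 ± 0.07 (limma, adjusted p = 7.00e-04), and shRNA1 was not called (0.16 ± 0.07, adjusted p = 0.130). Tfe3, the most abundant of the 3, had 34.3 and 32.3 FPKM with shRNA1, 39.1 and 40.6 FPKM with shRNA3 and 33.3 and 35.9 FPKM in WT. Its rise with shRNA3 (0.20, adjusted p = 0.0184) was lost after rescaling to the same total (0.13, adjusted p = 0.104) and without WT replicate 1 or shRNA3 replicate 2 (0.14 and 0.17, adjusted p = 0.111 and 0.102). Mitf, best known from melanocytes and osteoclasts, was lowest, at 4.00 and 4.02 FPKM with shRNA1, 4.52 and 5.0 FPKM with shRNA3 and 3.84 and 4.26 FPKM in WT. It was not called against WT with either hairpin (-0.01 and 0.19, limma adjusted p = 0.939 and 0.0953). These factors are regulated mainly by their entry into the nucleus, which RNA levels do not measure.

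The ATG8 family, the ubiquitin-like proteins coupled to autophagosome lipids, had no member called for shRNA1 and 4 of 5 higher for shRNA3. Among all genes 36.0% were called for shRNA1 and 55.2% for shRNA3, with 27.4% higher for shRNA3. By FPKM, Gabarap led (217 to 260.3 FPKM in knockdown libraries, 227 and 235 in WT libraries), followed by Map1lc3b (191 to 218 FPKM in knockdown, 176 and 185 in WT) and Gabarapl2 (84.3 to 91.5 FPKM in knockdown, 80.9 and 82.4 in WT). Gabarapl1 and Map1lc3a came last and close together, at 55.7 to 58.9 and 53.3 to 55.6 FPKM in WT libraries, and their ranges overlapped in shRNA1 cells (56.5 to 57.2 and 54.7 to 58.0 FPKM). Gabarapl1 (chr6:129533160-129542346) had 56.5 and 57.2 FPKM with shRNA1 and 73.7 and 70.2 FPKM with shRNA3, against 58.9 and 55.7 FPKM in WT. Only the shRNA3 libraries lay apart, a rise of 0.32 ± 0.05 (limma, adjusted p = 8.23e-04) beside -0.01 ± 0.05 for shRNA1 (adjusted p = 0.881); over both hairpins (0.16) the call was lost after rescaling (0.09, adjusted p = 0.118), quantile normalization (0.11, adjusted p = 0.0638) or without WT replicate 2 (0.12, adjusted p = 0.117). Exons of a noncoding gene on the other strand cover 28.3% of its exon bases. Gabarap had 217 and 222 FPKM with shRNA1, 260.3 and 250.1 FPKM with shRNA3 and 235 and 227 FPKM in WT, so that shRNA1 lay just below and shRNA3 just above WT. Its rise with shRNA3, 0.14, was lost after rescaling (0.07, adjusted p = 0.201), in limma without a trend (adjusted p = 0.0594) and without WT replicate 2 or shRNA3 replicate 1 (0.12 and 0.11, adjusted p = 0.106 and 0.0990). Map1lc3b, the LC3 protein most used to follow autophagy, rose with shRNA3 (0.27, limma adjusted p = 0.00123) and was not called for shRNA1 (0.10, adjusted p = 0.0933). Gabarapl2 was called higher for shRNA3 (0.14, adjusted p = 0.0357) and over both hairpins (0.12, adjusted p = 0.0420), and both calls were lost without either WT or either shRNA3 library, the second also without shRNA1 replicate 2, and under 5 other alternatives each, with adjusted p up to 0.288 for shRNA3 and 0.333 over both hairpins.

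Of the 4 conjugation genes, whose products couple ATG8 proteins to lipid, 1 was called over both hairpins, where 50.0% of all genes were. Atg12, the most abundant of them, had 21.6 and 24.1 FPKM with shRNA1, 25.1 and 24.8 FPKM with shRNA3 and 22.5 and 22.7 FPKM in WT. It was not called for either hairpin (0.02 and 0.14, limma adjusted p = 0.847 and 0.0801), and neither was Atg7, the activating enzyme, at 8.48 to 10.6 FPKM in knockdown libraries and 7.95 and 9.53 FPKM in WT libraries. Atg16l1, which places the complex on the membrane, was at 12.4 to 13.8 FPKM in knockdown libraries and 12.6 FPKM in both WT libraries and was not called either. Atg5, the partner of Atg12, was at 7.97 to 8.88 FPKM in knockdown libraries and 9.81 and 10.3 FPKM in WT libraries and fell with shRNA3 (by 0.25, adjusted p = 0.0111), a call lost without WT replicate 2 or shRNA3 replicate 2 (-0.22 and -0.21, adjusted p = 0.0668 and 0.0665). Its fall over both hairpins, by 0.21, was lost without WT replicate 2 (-0.18, limma adjusted p = 0.107).

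All 4 initiation and nucleation genes were called over both hairpins, 2 in each direction, where 50.0% of all genes were called. Wipi1 (chr11:109573331-109611967), which reads the phosphoinositide on the forming membrane, had 53.0 and 52.1 FPKM with shRNA1 and 48.8 and 46.2 FPKM with shRNA3, against 39.6 and 39.5 FPKM in WT. Knockdown libraries all lay above WT, a rise of 0.40 ± 0.05 for shRNA1 and 0.26 ± 0.05 for shRNA3 (limma, adjusted p = 4.88e-04 and 0.00218). Wipi2, its relative that recruits the conjugation complex, lay the other way, at 32.2 to 35.9 FPKM in knockdown libraries and 39.4 and 39.5 FPKM in WT, and fell by 0.21 over both hairpins (adjusted p = 0.00268). Ulk1, the kinase that starts autophagy, had 17.5 and 17.6 FPKM with shRNA1, 21.6 and 21.8 FPKM with shRNA3 and 16.8 and 17.3 FPKM in WT. It rose with shRNA3 (0.33, limma adjusted p = 8.98e-04) and was not called for shRNA1 (0.04, adjusted p = 0.567); over both hairpins (0.18) the call was lost after rescaling (0.12, adjusted p = 0.0681) or without WT replicate 1 (0.17, adjusted p = 0.0649). Becn1, the beclin of the lipid kinase complex, was at 32.7 to 33.6 FPKM with shRNA1, 27.2 to 28.7 FPKM with shRNA3 and 34.3 to 34.4 FPKM in WT. Becn1 fell with shRNA3 (by 0.29, adjusted p = 0.00161), and over both hairpins (-0.17) the call was lost without either WT library (-0.17 each, limma adjusted p = 0.0617 and 0.0576); exons of Cntd1 on the other strand cover 43.9% of its exon bases.

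The cargo receptors, which tie ubiquitin-marked cargo to ATG8, moved in both directions. Sqstm1 (chr11:50199366-50210827), which encodes p62, had 460.4 and 437 FPKM with shRNA1 and 638 and 633 FPKM with shRNA3, against 691 and 710.3 FPKM in WT. All 4 knockdown libraries lay below WT and those of shRNA1 far below, with means of 0.640 and 0.907 times the WT mean for shRNA1 and shRNA3. The fall with shRNA1 was by 0.64 ± 0.04 (limma, adjusted p = 2.40e-05). The fall with shRNA3, by 0.14 ± 0.04 (adjusted p = 0.0210), was lost without any 1 of the WT or shRNA3 libraries (-0.12 to -0.16, adjusted p = 0.0514 to 0.115) and in limma without a trend (adjusted p = 0.0647). Exons of Mrnip on the other strand cover 17.3% of its exon bases. Optn (chr2:5020642-5064051), for optineurin, a receptor of mitophagy and of bacteria, had 14.7 and 14.9 FPKM with shRNA1, 20.9 and 22.4 FPKM with shRNA3 and 16.5 and 15.7 FPKM in WT. It rose with shRNA3 (0.40 ± 0.06, limma adjusted p = 7.01e-04) and was not called for shRNA1 (-0.11 ± 0.06, adjusted p = 0.161). Over both hairpins its value of 0.14 (adjusted p = 0.0425) was lost without any 1 of 5 libraries, all but shRNA3 replicate 1, and under 4 other alternatives (adjusted p up to 0.279). Tax1bp1, a receptor for protein aggregates, was at 57.0 to 61.5 FPKM in knockdown libraries and 69.2 and 69.6 FPKM in WT and fell by 0.24 over both hairpins (limma, adjusted p = 0.00128). Nbr1, at 41.2 to 45.0 FPKM in knockdown libraries and 42.9 and 43.0 FPKM in WT, was not called in any comparison. The 4 receptors summed to 575 and 555 FPKM with shRNA1, 760.0 and 758 FPKM with shRNA3 and 820 and 839 FPKM in WT, most of it Sqstm1.

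The hairpins differed from each other in many of these genes. For shRNA3 against shRNA1 27 of 45 members (60.0%) were called, 19 higher and 8 lower in shRNA3 cells, with 42.5% of all genes called, 22.0% higher and 20.5% lower. Without shRNA3 replicate 2 or shRNA1 replicate 1, 4 members were called lower in place of 8, and 1547 or 1658 of all genes in place of 2273. The median member difference was 0.11, against 0.01 for all genes. Cd68 was 0.66 ± 0.07 higher in shRNA3 than in shRNA1 cells, Scarb2 0.58 ± 0.06, Lgmn 0.53 ± 0.05, Optn 0.52 ± 0.06 and Sqstm1 0.50 ± 0.04, and Gusb was 0.63 ± 0.06 lower (limma, adjusted p from 1.05e-04 to 4.09e-04). Lipa was 0.48 ± 0.05 higher (limma, adjusted p = 2.87e-04). Thus the 3 members with the largest log2(FPKM + 1) rises over both hairpins were all higher in shRNA3 than in shRNA1 cells. By the ratio of mean FPKM over both hairpins to WT, the low gene Ctsc (1.65) stood above Lipa (1.47). Ctsc was lower in shRNA3 than in shRNA1 cells (-0.36). For Ctsl, Gusb, Scarb2, Tfe3, Gabarap, Gabarapl1 and Optn the changes of the 2 hairpins against WT had opposite signs and differed by the test. Only for Scarb2 was each of these opposite values called against WT. The shRNA1 libraries of Tfe3 and Gabarapl1 overlapped those of WT. Members not called here, such as Ctsa (-0.05 ± 0.05) and Cd63 (0.04 ± 0.04), may still differ by less than the test can see.

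**Figure D4:**
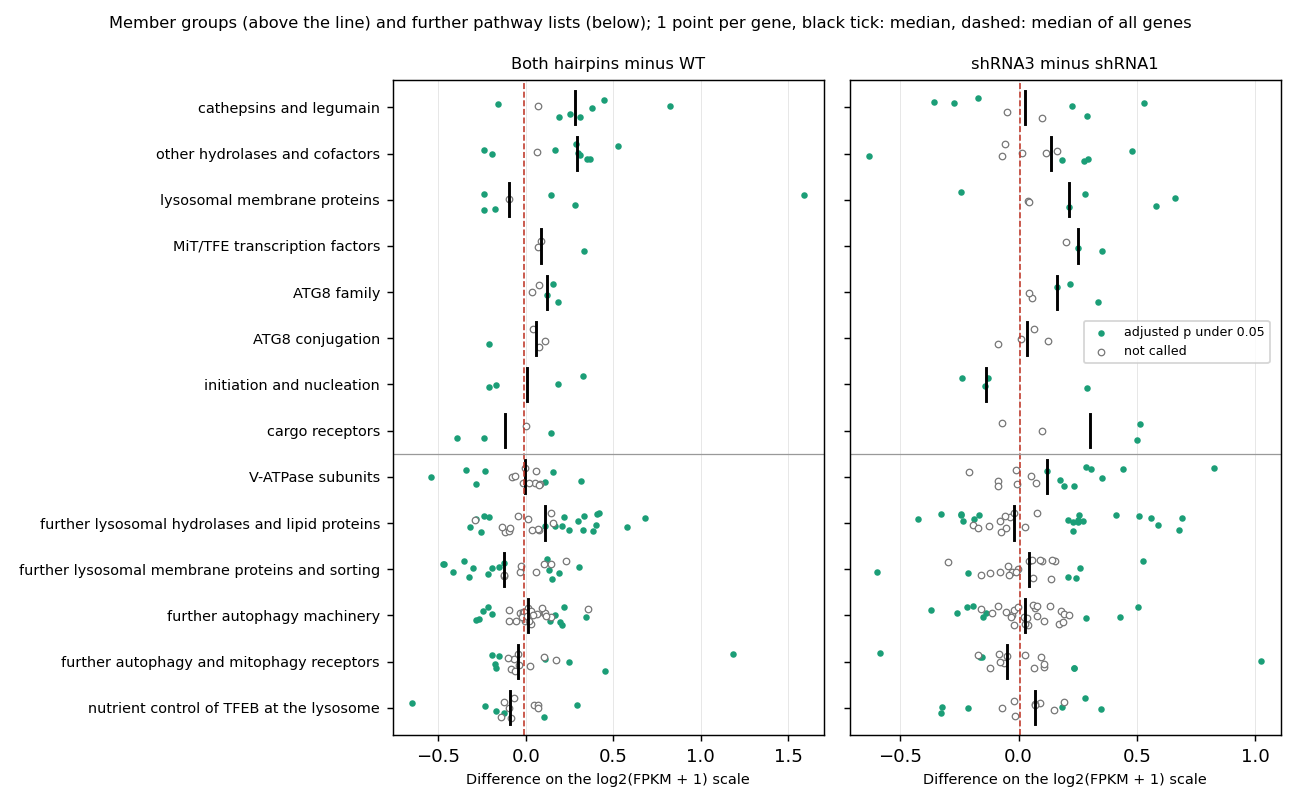
Differences on the log2(FPKM + 1) scale for the member groups (above the line) and for further genes of the pathway (below), over both hairpins against WT on the left and shRNA3 against shRNA1 on the right; filled points had an adjusted p under 0.05, ticks are list medians and the dashed line is the median of all genes. The group of cathepsins and legumain and that of other hydrolases have the highest medians on the left (0.28 and 0.30). Cargo receptors and initiation genes have the highest and lowest on the right (0.30 and -0.14), and Atp6v0c is left out of the plot.

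Further genes of the pathway were taken from 6 lists by known function, and the alternatives were not run for them. These lists too were chosen with earlier results of these data known. Over both hairpins 61.3% of the hydrolases tested and 65.2% of the membrane and sorting genes were called, against 50.0% of all genes. Below that share lay the autophagy machinery (32.4%), V-ATPase subunits (41.2%), genes of the nutrient control of TFEB (42.9%) and further receptors (47.1%). Of 31 further hydrolases and lipid proteins 14 were higher and 5 lower over both hairpins, with a median of 0.11. Gm2a, the GM2 activator that works with hexosaminidase, had 26.4 and 27.8 FPKM with shRNA1, 31.6 and 32.3 FPKM with shRNA3 and 18.2 and 17.7 FPKM in WT, a rise of 0.68 ± 0.04 (limma, adjusted p = 1.82e-05). Arsa, the sulfatase of sulfatides, rose by 0.58 ± 0.05 over both hairpins (adjusted p = 5.47e-05). Of 23 membrane and sorting genes 5 were higher and 10 lower, with a median of -0.12. Of the genes that make or bind the mannose 6-phosphate tag, which sorts hydrolases to lysosomes, Gnptg fell by 0.41 with shRNA1 and by 0.53 with shRNA3 (limma, adjusted p = 0.0188 and 0.00346). Nagpa fell with shRNA3 (-0.62, adjusted p = 0.00329) and was not called for shRNA1 (-0.33, adjusted p = 0.0714). Gnptab and the receptor gene M6pr, added after their values were seen, rose by 0.15 and 0.13 over both hairpins (limma, adjusted p = 0.0408 and 0.0404). Tpcn2, a lysosomal cation channel, fell with shRNA3 (-0.72, adjusted p = 0.00105) and was not called for shRNA1 (-0.12, adjusted p = 0.449), with a difference between the hairpins of -0.60 (limma, adjusted p = 0.00404).

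Of the 17 subunits of the V-ATPase, the pump that acidifies the lysosome, 3 were higher and 4 lower over both hairpins, with a median of 0.00. This was 41.2% called, against 50.0% of all genes. Atp6v1a, for the catalytic subunit, rose by 0.32 and Atp6v0a2 fell by 0.54 (limma, adjusted p = 2.27e-04 and 9.72e-04). Atp6v0d1 had 20.7 and 21.2 FPKM with shRNA1, 38.7 and 37.1 FPKM with shRNA3 and 35.5 and 36.5 FPKM in WT, so that only the shRNA1 libraries lay low. Atp6v0c was erratic within groups, at 0.00400 and 26.4 FPKM in the shRNA3 libraries, and is given no direction. Of 34 further autophagy genes 6 were higher and 5 lower. Uvrag, which promotes autophagosome maturation, rose with shRNA3 (0.56, limma adjusted p = 1.47e-04) and was not called for shRNA1 (0.13, adjusted p = 0.114). Stx17, the autophagosome SNARE, fell with shRNA1 (-0.52, limma adjusted p = 0.00200) and was not called for shRNA3 (-0.02, adjusted p = 0.872). The hairpins differed in both, by 0.43 for Uvrag and 0.50 for Stx17 as shRNA3 minus shRNA1 (limma, adjusted p = 9.57e-04 and 0.00195). Atg3, the enzyme that couples ATG8 to lipid, fell by 0.21 with shRNA1 and by 0.36 with shRNA3 (adjusted p = 0.0115 and 4.74e-04).

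Of 17 further receptors 4 were higher and 4 lower, among them Bnip3, a mitophagy receptor known as a hypoxia target, at 246 and 254 FPKM with shRNA1, 165 and 167 FPKM with shRNA3 and 93.7 and 84.6 FPKM in WT. All knockdown libraries lay above WT, and here shRNA1 led, with a change of 1.48 ± 0.05 for shRNA1 and 0.89 ± 0.05 for shRNA3 (limma, adjusted p = 1.38e-06 and 1.06e-05). The difference of shRNA3 minus shRNA1 was -0.59 ± 0.05 (limma, adjusted p = 1.62e-04). Its relative Bnip3l rose by 0.46 over both hairpins (adjusted p = 9.79e-05). Stbd1, a glycogen receptor, fell with shRNA1 and rose with shRNA3 (-0.27 and 0.76, limma adjusted p = 0.0387 and 1.86e-04). Of 14 genes tied to the nutrient control of TFEB 2 were higher and 4 lower, where 50.0% of all genes were called. Gpnmb, a glycoprotein known as a target of MiT/TFE factors, had 102 and 103 FPKM with shRNA1, 126 and 124 FPKM with shRNA3 and 177 and 179 FPKM in WT and fell by 0.65 ± 0.03 over both hairpins (limma, adjusted p = 5.20e-06). Rragd, the Rag GTPase known as a TFEB target, rose by 0.29 over both hairpins (limma, adjusted p = 0.0336), with neither hairpin called alone (0.30 and 0.29 for shRNA1 and shRNA3, adjusted p = 0.0661 and 0.0563). Flcn, the folliculin that acts on it, fell with shRNA1 (-0.33, limma adjusted p = 0.00383) and was not called for shRNA3 (-0.14, adjusted p = 0.0646).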

How the data were processed

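RNA of 4T1 cells was isolated with a column kit and made into libraries with a stranded mRNA kit, per the labels. The authors deposited 1 table per library, taken here as FPKM: the values are not whole and the submitters' processing notes name Cufflinks 2.2.1, with TopHat2 2.0.13, Bowtie2 2.2.3, SAMtools 0.1.19 and mm10. Roles, annotation, strand setting and filters: not given in the sources used here. Read depth is unknown. FPKM is relative to the library. Median-of-ratios factors of the deposited values were 1.001 to 1.005, while the totals ran from 560862 to 604022 FPKM. The libraries thus stood level at the median gene and not in their totals.

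Groups came from the sample titles. Tests ran on log2(FPKM + 1) for genes averaging 1 FPKM or more, in a 3-group model of the 6 libraries (limma 3.58.1 in R 4.3.3, trend, 3 residual and 4.96 prior degrees of freedom), with 4 two-sided contrasts and Benjamini-Hochberg adjustment over 11079 genes; p-values and adjusted p-values are from this fit. The fit was tested on simulated data. No count test was run because the files hold no counts. Members and lists were chosen with earlier results of these data known. Values in every library are given for members called with a change of at least 0.3, for the MiT/TFE factors and for the most abundant member of each group; from each further list up to 3 called genes with the largest change over both hairpins are named. Of the genes this rule selects, 1 is not reported here. Rubcn and Retreg1 were found under older symbols. Gene coordinates and exon overlaps came from GENCODE mouse release 21 on GRCm38, and promoters from RefSeq; Ctsb, Ctsh, Asah1, Map1lc3a, Atg12, Atg16l1 and Becn1 are not in that promoter table. The last 40 bases of 43 of 50 windows matched a transcript of their gene, and 0 matched on the other strand. The alternatives tried were other pseudocounts (0.1, 0.5), other filters (none, a 5 FPKM mean), 3 other scalings, limma without a trend, 1 knockdown group, a replicate block, and leaving out each library. Python 3.11.15 with pandas 2.3.3 and matplotlib 3.10.9 was used for tables and figures.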

Additional observations from a re-analysis of the deposited data

Results flagged for a closer look

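In 27 of the 45 members tested the effect of the 2 hairpins differed by the test of shRNA3 against shRNA1 (limma, adjusted p under 0.05), beside 42.5% of all genes. Higher in shRNA3 than in shRNA1 cells on the log2(FPKM + 1) scale were Cd68 (0.66), Scarb2 (0.58), Lgmn (0.53), Optn (0.52), Sqstm1 (0.50), Lipa (0.48), Tfeb (0.35), Gabarapl1 (0.33), Psap (0.29), Ctsd (0.29), Ulk1 (0.29), Lamp2 (0.28), Gaa (0.28), Tfe3 (0.25), Ctsb (0.23), Gabarap (0.22), Mcoln1 (0.21), Glb1 (0.18) and Map1lc3b (0.16). Lower in shRNA3 than in shRNA1 cells were Gusb (-0.63), Ctsc (-0.36), Ctsl (-0.27), Lamp1 (-0.24), Becn1 (-0.24), Ctsh (-0.17), Wipi1 (-0.14) and Wipi2 (-0.13). AU021063 was lower in shRNA3 than in shRNA1 cells on average, and its part in these differences was not tested. Of the 27 differences 18 were called under every alternative that left the contrast defined, and those of Ctsc, Glb1, Map1lc3b, Wipi1, Wipi2, Ctsh, Gaa, Mcoln1 and Tfe3 were lost without at least 1 library (adjusted p up to 0.196).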

How the results depend on the processing

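With 2 libraries a group, many small changes depended on single libraries, on the scaling or on another setting of the fit. Of 117 called changes of single members 74 kept their call under every alternative except the fit of 1 knockdown group. They were 20 of 34 over both hairpins, 11 of 22 for shRNA1, 25 of 34 for shRNA3 and 18 of 27 for shRNA3 against shRNA1. The same count was not made for all genes. Fitting the knockdown libraries as 1 group left 9 members called, 8 higher and 1 lower, and 13.7% of all genes. Counts of members lower in knockdown ran from 5 to 11 over both hairpins without 1 library, from 4 to 6 for shRNA1 (11 after rescaling to the same total), and for shRNA3 against shRNA1 from 4 to 6. Counts of higher members moved by at most 1.5 times apart from the 1-group fit. Deviations of same-numbered libraries correlated at 0.01 for WT and shRNA1, -0.07 for WT and shRNA3, and 0.20 for shRNA1 and shRNA3. These values do not settle whether the replicate numbers pair the libraries. A replicate block called 21 higher and 11 lower over both hairpins and 15 and 6 for shRNA1. It called 23 and 9 for shRNA3, and 19 and 5 for shRNA3 against shRNA1. Where 1 library was left out, the lone library of its group was assumed to vary like the other groups. The cause of these shifts was not tested. The promoter share was 30.8% with the shorter core CACGTG in place of 12.8%, and stayed at 12.8% for the part before the start. Of 37 changes of sign, none concerned a value called in either setting. After rescaling to the same total they were, over both hairpins, Gabarap (-0.032) and Atg16l1 (-0.018); for shRNA1, Ctsd (-0.0101), Lamp2 (-0.054), Map1lc3a (-0.0083), Atg12 (-0.038), Atg16l1 (-0.042) and Ulk1 (-0.014); for shRNA3, Nbr1 (-0.023); and for shRNA3 against shRNA1, Atg7 (-0.0062). With quantile normalization they were Ctsl (-0.083) and Gabarap (-0.0028) over both hairpins, Ctsd (-0.038) and Lamp2 (-0.043) for shRNA1, and Tpp1 (-0.0058) for shRNA3 against shRNA1; median-of-ratios scaling gave Nbr1 (0.0023) over both hairpins. Without 1 library the values over both hairpins ran from -0.0081 to 0.0068 for Nbr1 and -0.0074 to 0.23 for Atg7. For shRNA1 they ran from -6.04e-04 to 0.11 for Tpp1, -0.0501 to 0.028 for Gabarapl1, -0.018 to 0.024 for Lamp2, -0.071 to 0.04995 for Mitf, -0.012 to 0.22 for Atg7, -0.017 to 0.039 for Atg16l1 and -0.058 to 0.093 for Atg12, and for shRNA3 from -0.033 to 0.26 for Atg7. For shRNA3 against shRNA1 they ran from -0.011 to 0.099 for Gabarapl2, -0.17 to 0.0296 for Gla, -0.039 to 0.071 for Tpp1, -0.14 to 0.16 for Atg7, -0.0061 to 0.084 for Cd63 and -0.0083 to 0.096 for Cln3. Read depth is unknown, so counting error could not be separated from other spread, and Ctss could not be tested at its level.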
